A study of Mus musculus with 2 samples.

Results

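Transcript levels of 10 surface marker genes, Kit, Cd34, Ly6a, Fcgr3, Fcgr2b, Eng, Itga2b, Cd44, Cd24a and Cd36, were read from total RNA of mouse erythroid progenitor cells named CFU-Ery. The genes were chosen by name as those whose proteins are used to gate marrow progenitors and to stage erythroblasts, and each was matched to its Ensembl gene among 43346 in the tables, of which 21461 are nuclear protein-coding. The design holds 1 group of 2 libraries. They were made from primary cells of C57BL/6J males, 5 to 6 weeks old, for which the labels link a bone marrow progenitor isolation and a library method for small pools of cells. Each library was made from 1 ng of RNA with spike-ins and fragments of 150 to 400 nt. The labels list 1 donor for both libraries but a biosample for each, which leaves unstated whether more than 1 animal was used, so the SDs given here may reflect technical spread alone. With no second group there is no comparison between conditions and no test. The gate used to sort these cells is not given in the sources used here.

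Marrow progenitors are told apart by antibodies to a small set of surface proteins. Kit, the receptor for stem cell factor, is kept on early erythroid progenitors and lost as erythroblasts mature, while Sca-1 (the product of Ly6a), CD34, the Fc gamma receptors and CD41 (the product of Itga2b) serve to set aside stem, myeloid and megakaryocyte progenitors, and endoglin (Eng) serves to pick out progenitors committed to red cells. CD44 declines as erythroblasts mature and is used with cell size to stage them, and CD24 and CD36 are carried by erythroid precursors and also by other blood cells. Antibodies read protein at the surface and these libraries read RNA, so no sorting property is given by the values below. In bulk RNA, fewer cells of a type and less RNA per cell cannot be told apart.

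The total expected count, which is the number of reads estimated for each gene and summed over the table, was 143491647 in replicate 1 and 110634458 in replicate 2. Genes of the mitochondrial chromosome held 90.3% and 88.3% of it, and nuclear protein-coding genes 3.29% and 3.7%. The deposited TPM, transcripts per 1000000 after correction for length, is on a scale that includes the mitochondrial genes, so a second scale, called rescaled TPM here, sets the sum over nuclear protein-coding genes to 1000000. A deposited TPM of 1 is worth 43.1 rescaled TPM in replicate 1 and 37 in replicate 2. Of 16 erythroid surface marker genes, 15 reached 1 TPM in both libraries and Bcam was at 0 counts in both. The highest were Slc4a1, the anion exchanger band 3 (136 ± 17.5 TPM), Kel, a blood group protein (76.3 ± 8.17 TPM), and Tfrc, the transferrin receptor CD71 (59 ± 0.856 TPM; SD, n = 2 for each).

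Cd24a stood far above the other 9 surface marker genes, Cd36, Fcgr3 and Cd44 followed at 1.43 to 3.2 TPM, and Fcgr2b, Kit, Eng, Itga2b, Cd34 and Ly6a lay under 1 TPM in both libraries. Together the 10 genes held 6960 rescaled TPM in replicate 1 and 6521 in replicate 2, which is 0.696% and 0.652% of nuclear protein-coding TPM. Cd24a alone held 94.7% and 94.8% of that sum. The median of the 10 genes was 0.63 and 0.76 TPM (27.2 and 28.1 rescaled TPM), against a median of 0.01 and 0.02 TPM over all nuclear protein-coding genes (0.431 and 0.74 rescaled TPM). Of the 10 genes, 4 reached 1 TPM in both libraries, which 12.6% of nuclear protein-coding genes did. On the rescaled TPM all 10 reached 1 in both libraries, which 44.6% of nuclear protein-coding genes did. All 10 passed the filter of a mean expected count of 20.

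By mean deposited TPM the order was Cd24a, Cd36, Fcgr3, Cd44, Fcgr2b, Ly6a, Kit, Itga2b, Eng and Cd34. Of the 9 pairs of neighbours, the first 5 did not overlap between the libraries, from Cd24a over Cd36 down to Fcgr2b over Ly6a. The other 4, Ly6a and Kit, Kit and Itga2b, Itga2b and Eng, and Eng and Cd34, overlapped, so the lower part of the order is not resolved by these libraries. The first 5 places by mean were the same on the posterior mean TPM, the rescaled TPM, FPKM and expected counts over a fixed transcript length, while the places of the lower 5 changed with the scale. Over the fixed length, however, Ly6a lay above Fcgr2b in replicate 2 (12.9 against 10.4), and Kit above Fcgr2b in replicate 1 (8.18 against 7.64). Kit also had more counts than Fcgr2b in both libraries (196 and 190 against 122.86 and 145.6).

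**Figure D1:**
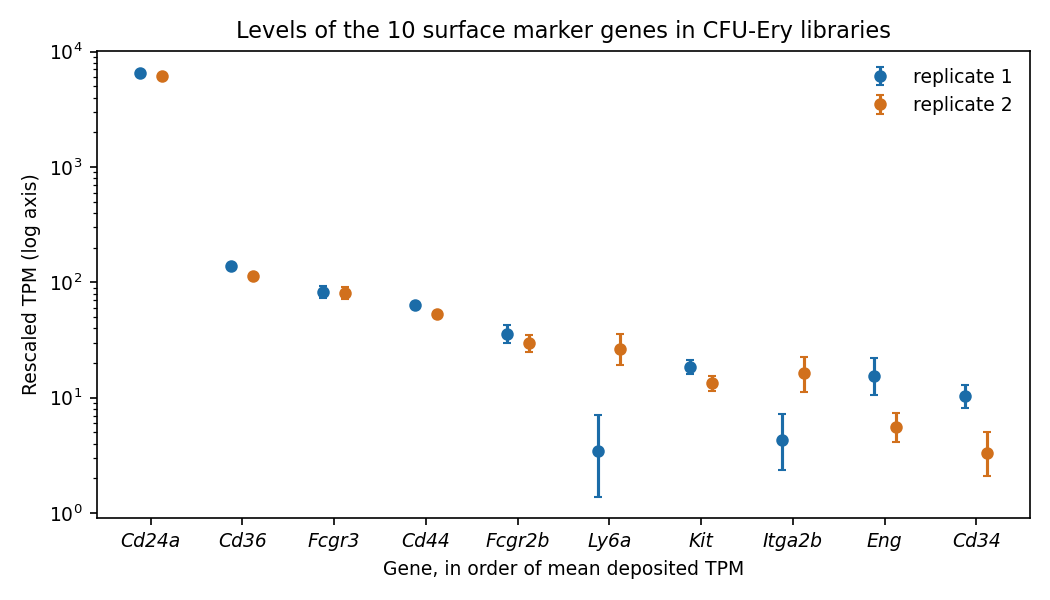
Rescaled TPM (log axis) of the 10 surface marker genes in each library, with the 95% exact Poisson interval of the expected count as bars, which cover counting error only. Cd24a lies at 6588 and 6179, while the points of Ly6a, Itga2b, Eng and Cd34 in the 2 libraries lie more than 2-fold apart.

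Kit (ENSMUSG00000005672.8, chromosome 5, 75574916 to 75656722, plus strand, GRCm38) encodes the receptor tyrosine kinase for stem cell factor. It had 196 counts and 0.43 TPM in replicate 1, and 190 counts and 0.36 TPM in replicate 2, or 18.6 and 13.3 rescaled TPM. The libraries lay close together, at a mean of 0.395 ± 0.0495 TPM (SD, n = 2). This placed Kit at percentile 76.1 and 72.7 of nuclear protein-coding genes. The Tfrc transcript was 150-fold higher than that of Kit by mean log2 TPM ratio, with a log2 ratio of Kit over Tfrc of -7.09 in replicate 1 and -7.37 in replicate 2. In counts without length scaling the mean log2 ratio was -6.57, and the effective length of Kit was 3446 nt in replicate 1 and 5075 nt in replicate 2. Kitl, the gene of its ligand stem cell factor, had 24 and 22 counts, or 0.03 and 0.04 TPM.

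Kit reads were divided between annotated transcripts that code for a longer and a shorter form of the receptor. The forms, known as GNNK+ and GNNK-, differ by a short insert just outside the membrane, which comes from the end of coding exon 9 and is set in capitals here because no other coding bases differ between the transcripts. The sequences are read on the plus strand of GRCm38, chr5:75639087-75639158 for Kit-201 and chr5:75639087-75639146 for Kit-204, from GENCODE M21 transcripts.
Kit-201: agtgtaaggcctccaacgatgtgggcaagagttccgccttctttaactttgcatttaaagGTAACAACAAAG
Kit-204: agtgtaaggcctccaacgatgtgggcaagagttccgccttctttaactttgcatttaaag
Kit-201, which holds the 12 bases, was assigned 118.06 counts in replicate 1 and 190 in replicate 2. Kit-204, which lacks them, was assigned 62.9 counts in replicate 1 and 0 in replicate 2. The transcripts also differ before the start codon, by 39 nt that Kit-204 alone holds, so the assignment does not rest on the insert alone. A further 15.04 counts of replicate 1 were assigned to Kit-205, a retained intron transcript, which because of its short length of 842 nt took 37.46% of the gene's TPM. In replicate 2 that transcript had 0 counts. These are maximum likelihood assignments, and on the authors' deposited posterior mean isoform percent Kit-204 held 20.53% in replicate 1 and 29.31% in replicate 2, against 31.64% and 44.88% for Kit-201, so the absence of the shorter form from replicate 2 depends on the estimate.

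Cd34 (ENSMUSG00000016494.5, chromosome 1, 194938819 to 194961279, plus strand) encodes a sialomucin of stem and early progenitor cells. It had 75 counts and 0.24 TPM in replicate 1 and 22 counts and 0.09 TPM in replicate 2, the lowest mean of the 10 genes at 0.165 ± 0.106 TPM (SD, n = 2). Replicate 1 was higher on every scale tried. On counts per 1000000 nuclear protein-coding counts (CPM) the log2 difference, replicate 1 minus replicate 2, was 1.56, with a 95% exact binomial interval of 0.86 to 2.32 that covers counting error only. The full-length transcript Cd34-201 carried 70.21% and 100% of the gene's TPM. Cd34-202, whose shorter coding sequence (975 against 1146 nt) gives a form with a truncated tail, carried 29.79% in replicate 1 and 0% in replicate 2, but 31.65% and 27.84% on the posterior mean isoform percent. Cd34 exons overlap the antisense gene Gm16897 over 148 nt, and whether strand was used in counting is not given in the sources used here.

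Ly6a (ENSMUSG00000075602.6, chromosome 15, 74994877 to 74998031, minus strand) encodes Sca-1, the glycolipid-anchored antigen that marks stem and multipotent cells. It had 7 counts in replicate 1 and 43 in replicate 2, that is 0.08 and 0.72 TPM, or 3.45 and 26.6 rescaled TPM. Replicate 2 was the higher, and the SD exceeded the mean (0.4 ± 0.453 TPM, n = 2). The log2 difference in CPM, replicate 1 minus replicate 2, was -2.82, with a counting interval of -4.22 to -1.66. Ly6a shares 37.4% of its 25-mers with other genes, led by Ly6c1 (23.7%), Ly6i (12.7%) and Ly6c2 (10.4%). Its coding sequence is 81.8% identical to that of Ly6c1 and 81.6% identical to that of Ly6c2, with identical runs of at most 48 and 52 nt, and 52.3% identical to that of Ly6e. Its counts were whole in both libraries. Ly6c2, a monocyte and granulocyte antigen, was the highest of the 13 Ly6 family genes listed, with 1902.99 and 1619.46 counts (23.7 ± 1.53 TPM), ahead of Ly6e (18.2 ± 1.7 TPM) and Ly6d (1.67 ± 0.205 TPM). Ly6i was at 0 in both libraries.

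Fcgr3 and Fcgr2b encode low-affinity receptors for the constant part of IgG, which the same gating antibody commonly reads together. Fcgr3 (CD16) activates cells through the common gamma chain, and Fcgr2b (CD32) inhibits them. Fcgr3 (ENSMUSG00000059498.9) lies at chromosome 1, 171051174 to 171064935, and Fcgr2b (ENSMUSG00000026656.11) at chromosome 1, 170958617 to 170976547, both on the minus strand. Their coding exon 4 is the stretch in which they are most alike, 250 of 255 bases (98%), and it is shown because reads that cover none of the differing bases match both genes. It is given 5′ to 3′ on the minus strand of GRCm38, chr1:171053939-171054193 for Fcgr3-201 and chr1:170966446-170966700 for Fcgr2b-201, from GENCODE M21 transcripts, with the 5 differing bases in capitals.
Fcgr3-201: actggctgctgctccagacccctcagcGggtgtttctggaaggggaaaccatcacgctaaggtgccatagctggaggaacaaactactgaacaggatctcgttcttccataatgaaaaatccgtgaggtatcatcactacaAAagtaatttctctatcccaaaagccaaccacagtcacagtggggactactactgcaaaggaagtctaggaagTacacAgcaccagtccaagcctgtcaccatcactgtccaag
Fcgr2b-201: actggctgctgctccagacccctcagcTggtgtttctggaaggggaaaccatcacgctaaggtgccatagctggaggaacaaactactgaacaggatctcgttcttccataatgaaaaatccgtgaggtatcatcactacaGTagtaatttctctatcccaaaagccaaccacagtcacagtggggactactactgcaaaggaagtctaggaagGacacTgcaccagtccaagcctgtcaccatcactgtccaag
The longest run without a difference is 113 bases within this exon and 129 over the coding sequence, and the length of the reads is not given in the sources used here. Over the whole coding sequence Fcgr3-201 and Fcgr2b-201 are 65.3% identical, and 34% of the 25-mers of Fcgr3-201 are in both. Over all annotated Fcgr3 transcripts 15.2% of 25-mers occur in another gene, which is Fcgr2b in each case.

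Fcgr3 had 305.14 counts and 1.91 TPM in replicate 1 and 267.4 counts and 2.18 TPM in replicate 2, or 82.4 and 80.7 rescaled TPM. Fcgr2b had 122.86 counts and 0.83 TPM in replicate 1 and 145.6 counts and 0.8 TPM in replicate 2, or 35.8 and 29.6 rescaled TPM. The counts of each gene were fractional but summed over the pair to a whole number, 428 in replicate 1 and 413 in replicate 2, so some reads were divided between these genes. The authors' deposited posterior SD of the Fcgr3 count was 1.33 and 1.17 counts. Fcgr3 exceeded Fcgr2b in both libraries, by 1.20 on the log2 TPM scale in replicate 1 (counting interval 0.89 to 1.51) and by 1.45 in replicate 2 (1.14 to 1.74). Without length scaling the log2 ratios of counts were 1.31 and 0.88. The Fcgr2b difference between the libraries changed sign with the scale, at 0.19 on log2(rescaled TPM + 1) and -0.45 in CPM (counting interval -0.81 to -0.10), replicate 1 minus replicate 2. Its effective length, the length the authors' method averaged over the transcripts, was 1125 nt in replicate 1 and 1750 nt in replicate 2.

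Fcer1g, the common gamma chain that activating Fc receptors need at the surface, was the highest of the 11 Fc receptor genes listed, at 5.09 and 6.86 TPM (362 and 379 counts). Fcgr3 came next, followed by Fcrla, a B cell Fc receptor-like gene, at 1.36 ± 0.113 TPM (SD, n = 2). Because these receptors belong to myeloid cells, B cells and macrophages, marker genes of those cells are given beside them. Of 18 granulocyte and monocyte genes 12 reached 1 TPM in both libraries, their summed level was 25815 and 29878 rescaled TPM, and none was at 0 in both. Of 14 macrophage genes 8 reached 1 TPM, with sums of 844.3 and 878.1 rescaled TPM, led by Slc40a1, C1qb and Vcam1. Of 12 B cell genes 5 reached 1 TPM, with sums of 923.7 and 867 rescaled TPM, led by Ighm, Cd79b and Vpreb3. Their part in the levels of Fcgr3 and Fcgr2b was not tested.

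Eng (ENSMUSG00000026814.12, chromosome 2, 32646595 to 32682669, plus strand) encodes endoglin, CD105, a co-receptor for ligands of the TGF-beta family. It had 32 counts and 0.36 TPM in replicate 1 and 49 counts and 0.15 TPM in replicate 2, so the library with more counts had the lower TPM. The log2 difference, replicate 1 minus replicate 2, was 1.26 on log2(rescaled TPM + 1) and -0.82 in CPM (counting interval -1.51 to -0.15). Its effective length was 664 nt in replicate 1, where 1.97 of the 32 counts were assigned to the 3422 nt transcript Eng-201 and the others to Eng-204 and Eng-206, and 3264 nt in replicate 2, where all were assigned to the 3403 nt coding transcript Eng-205. In replicate 1 the retained intron transcript Eng-206 took 51.23% of the gene's TPM and the partial coding transcript Eng-204 took 47.52%. On the posterior mean isoform percent Eng-205 held 38.36% in replicate 2, and Eng-206 and Eng-204 held 15.34% and 11.4% there. Eng exons overlap those of Fpgs on the other strand over 61 nt.

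Genes of receptors that endoglin works with were also under 1 TPM. Acvrl1, the type I receptor ALK1, had 45 counts in replicate 1 and 9 in replicate 2, or 0.55 and 0.03 TPM. Tgfbr2, the type II receptor for TGF-beta, had 259 and 200 counts, or 0.42 TPM in both. Endoglin is best known on endothelial cells, and of 12 endothelial and stromal genes none reached 1 TPM in both libraries, with summed levels of 74.21 and 56.25 rescaled TPM. Tek, Kdr, Emcn and Nes were at 0 in both. Cxcl12, a chemokine of stromal cells, was the highest of that list at 1.33 and 0.83 TPM. Pecam1 came next, with 68 and 137 counts (0.17 and 0.46 TPM), then Col1a2, with 72 and 44 counts (0.12 and 0.08 TPM). Their cells' part in the level of Eng was not tested.

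Itga2b (ENSMUSG00000034664.9, chromosome 11, 102453297 to 102470122, minus strand) encodes integrin alpha IIb, CD41, of megakaryocytes, platelets and some early progenitors. It had 14 counts and 0.1 TPM in replicate 1 and 35 counts and 0.44 TPM in replicate 2. Replicate 2 was the higher also in CPM, by a log2 difference, replicate 1 minus replicate 2, of -1.53 (counting interval -2.54 to -0.60). Its only coding transcript, Itga2b-201, took 9.52% and 10.6% of the gene's TPM, or 4.16 and 15.98 counts, and the rest was assigned to non-coding transcripts, led by Itga2b-207 in replicate 1 (77.08%) and Itga2b-205 in replicate 2 (45.63%). On the posterior mean isoform percent these transcripts held 32.32% and 33.76%, and Itga2b-201 held 4.44% and 7.02%. Itgb3, the beta chain with which it forms the fibrinogen receptor, had 38 counts in replicate 1 and 0 in replicate 2, where a count of 0 does not show absence. Of 12 megakaryocyte and platelet genes none reached 1 TPM in both libraries and 2 were at 0 in both, with summed levels of 110.9 and 126.9 rescaled TPM. Gp9, Pf4 and Vwf were the highest of them, at 1.2 ± 0.474, 0.755 ± 0.643 and 0.54 ± 0.467 TPM (SD, n = 2). Their part in the level of Itga2b was not tested.

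Cd24a (ENSMUSG00000047139.8, chromosome 10, 43578284 to 43584265, plus strand) encodes heat stable antigen, a short and heavily glycosylated anchored protein of erythroid precursors, B cells and neutrophils. It had 33862 counts and 152.7 TPM in replicate 1 and 28892 counts and 166.98 TPM in replicate 2, or 6588 and 6179 rescaled TPM. This made it number 7 and number 8 of the 21461 nuclear protein-coding genes. The libraries differed by 0.02 on log2(rescaled TPM + 1). On the TPM scale Cd24a lay above Slc4a1, the leading erythroid surface gene, in each library (Slc4a1 had 123.88 and 148.57 TPM), and 2.7-fold above Tfrc, at a log2 TPM ratio of 1.39 and 1.49 (mean 0.78 in counts without length scaling). In counts without length scaling Slc4a1 was the higher in both libraries, at 72125 and 67646. Of its 25-mers 5.91% occur in other genes, mostly in Gm6212 (5.01%), and its counts were whole. The gene has 1 annotated transcript, with a coding sequence of 228 nt. The granulocyte genes S100a9 and S100a8 (211 ± 54.3 and 204 ± 46.9 TPM) and Ighm of B cells (10.9 ± 1.58 TPM) were present beside it, and their cells' part in the Cd24a level was not tested.

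Cd44 (ENSMUSG00000005087.13, chromosome 2, 102811141 to 102901665, minus strand) encodes the hyaluronan receptor that declines as erythroblasts mature. It had 784 counts and 1.47 TPM in replicate 1 and 705 counts and 1.43 TPM in replicate 2, or 63.4 and 52.9 rescaled TPM. Cd24a was 110-fold higher by mean log2 TPM ratio, at 6.70 in replicate 1 and 6.87 in replicate 2, with a mean log2 ratio of 5.39 in counts without length scaling. The ratio of Cd44 to Tfrc had a log2 mean of -5.35 ± 0.05 on the TPM scale (SD, n = 2), and in counts it was -4.72 in replicate 1 and -4.52 in replicate 2. Msn and Ezr, which tie CD44 to the actin skeleton, had 3.3 ± 0.283 and 1.65 ± 0.0141 TPM. CD44 is also carried by most white blood cells, and Ptprc, the common white cell antigen CD45, had 2.78 and 2.8 TPM, whose cells' part in the Cd44 level was not tested.

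Cd44 is known for variable exons that lengthen the outer part of the protein. The transcript with most of the gene's TPM was Cd44-207 (5045 nt, coding 1731 nt), at 64.57% and 91.23%. Cd44-203, a shorter coding form (coding 1095 nt), took 21.68% in replicate 1 and 2.27% in replicate 2. Cd44-207 holds 2197 nt that Cd44-203 lacks, of which 636 are coding and 1406 lie after the stop codon. A read from the stretch after the stop would match Cd44-207 and not Cd44-203 without covering a variable exon, and how many did so was not tested.

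Cd36 (ENSMUSG00000002944.11, chromosome 5, 17781690 to 17888801, minus strand) encodes a scavenger receptor for fatty acids and thrombospondin, found on erythroid progenitors in humans and on macrophages, platelets and fat cells. It had 1386 counts and 3.2 TPM in replicate 1 and 1040 counts and 3.08 TPM in replicate 2, or 138 and 114 rescaled TPM. It stood second of the 10 genes, at percentile 95.5 and 94.6. Cd36 was 7.98-fold higher than Kit by mean log2 TPM ratio, at 2.90 and 3.10, and 18.8-fold lower than Tfrc. Its transcripts Cd36-204 (71.35% and 90.39%) and Cd36-202 (28.65% and 9.61%) start 63 nt apart and code for the same protein. Cd36-201, which starts 14096 nt away from Cd36-204 with the same coding sequence, was at 0 in both libraries. The macrophage and platelet genes given above are also the markers of other cells that carry CD36, and their part in its level was not tested.

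Ratios within a library, which do not depend on its depth or its mitochondrial share, were closer between the libraries for some pairs than for others. Of the 11 ratios, 8 were over 2-fold in the same direction in both libraries on the TPM scale. In counts without length scaling 8 were as well, but not all the same ones. Fcgr3 exceeded Cd34 by a log2 TPM ratio of 2.99 (counting interval 2.62 to 3.38) in replicate 1 and 4.60 (3.97 to 5.29) in replicate 2, or by 2.02 and 3.60 in counts without length scaling. Kit exceeded Cd34 by 0.84 (0.45 to 1.25) and 2.00 (1.36 to 2.71), so the first of these was under 2-fold, while in counts the ratios were 1.39 and 3.11. Kit over Ly6a was 2.43 (1.36 to 3.76) in replicate 1 and -1.0 (-1.48 to -0.49) in replicate 2. Eng over Itga2b was 1.85 (0.90 to 2.87) in replicate 1 and -1.55 (-2.21 to -0.88) in replicate 2. In both of those pairs the higher gene was a different one in each library on the TPM scale. Kit and Eng had the more counts in both libraries, with log2 count ratios of 4.81 and 2.14 for Kit over Ly6a and of 1.19 and 0.49 for Eng over Itga2b.

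Of the 10 surface marker genes, 4 lay over 2-fold apart between the libraries on log2(rescaled TPM + 1) after a median shift of 0.08 was removed, against 17.1% of the 9078 nuclear protein-coding genes that passed the filter on counts. Eng (1.26) and Cd34 (1.31) were higher in replicate 1, as were 8.72% of genes, and Ly6a (-2.71) and Itga2b (-1.78) were higher in replicate 2, as were 8.33%. These 4 are the marker genes with a mean expected count under 50, a range in which 38.6% of genes lay over 2-fold apart. Neither marker gene between 50 and 200 counts, Kit (0.37) and Fcgr2b (0.19), passed 2-fold, nor did any of the 4 above 200, where 19.5% and 3.11% of genes did. Counts scaled by the trimmed mean of M values gave the opposite sign for Eng (-0.80) and the same sign for Cd34, Ly6a and Itga2b.

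**Figure D2:**
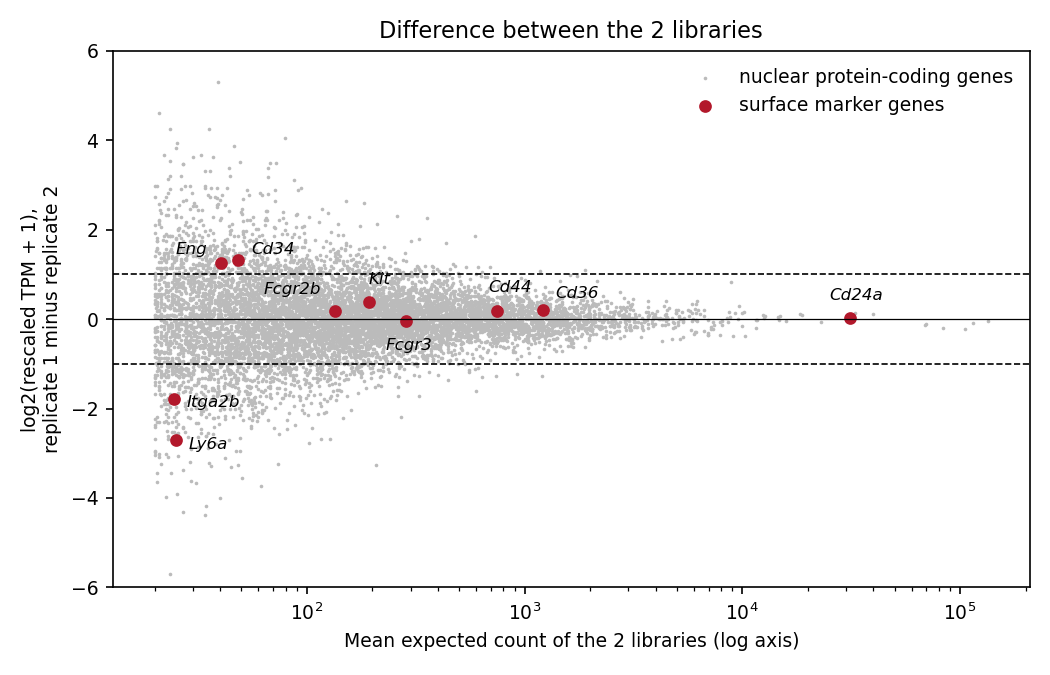
Difference between the libraries, replicate 1 minus replicate 2, on log2(rescaled TPM + 1), against the mean expected count (log axis), for nuclear protein-coding genes (grey) and the 10 surface marker genes (red); dashed lines mark 2-fold, and 1 grey gene lies beyond the axis. The spread narrows with the count, and the 4 marker genes outside the lines, Ly6a, Itga2b, Eng and Cd34, are at the left, with under 50 counts.

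Across the 10 genes, 33 of 58 annotated transcripts had reads in either library. The leading transcript was the same in both libraries for 7 genes, and in 6 it held 50% or more of the gene's TPM in both, against 3 on the posterior mean isoform percent. Each of these numbers includes Cd24a, which has 1 annotated transcript and so could not differ. The exceptions to the same leading transcript were Fcgr2b, Eng and Itga2b, and which genes are exceptions depends on the estimate. On the posterior mean isoform percent Fcgr2b-206 led Fcgr2b-201 in both libraries (57.37% and 33.39% against 8.8% and 31.57%). In replicate 1 Kit-205 led Kit-201 there (32.69% against 31.64%), and Ly6a-206 led Ly6a-201 (23.35% against 22.87%). Fcgr3-201 led in both libraries, at 97.18% and 50.5%, with the retained intron transcript Fcgr3-203 at 0% and 35.75%. For Fcgr2b the non-coding transcript Fcgr2b-206 took 60.26% and 35.7%, Fcgr2b-201, the longest coding form, 9.22% and 35.9%, and Fcgr2b-202, which lacks 141 coding nt of it, 29.94% and 6.15%. A further coding transcript, Fcgr2b-203, took 0% and 22.25%. Ly6a-201 held 100% and 79% of Ly6a, but 22.87% and 48.05% on the posterior mean isoform percent, where Ly6a-206 held 23.35% and 24.48%. Unless named as posterior means, these shares come from the authors' deposited maximum likelihood isoform percent, and they rest, for the lower 5 genes, on 7 to 196 reads per gene and library.

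**Figure D3:**
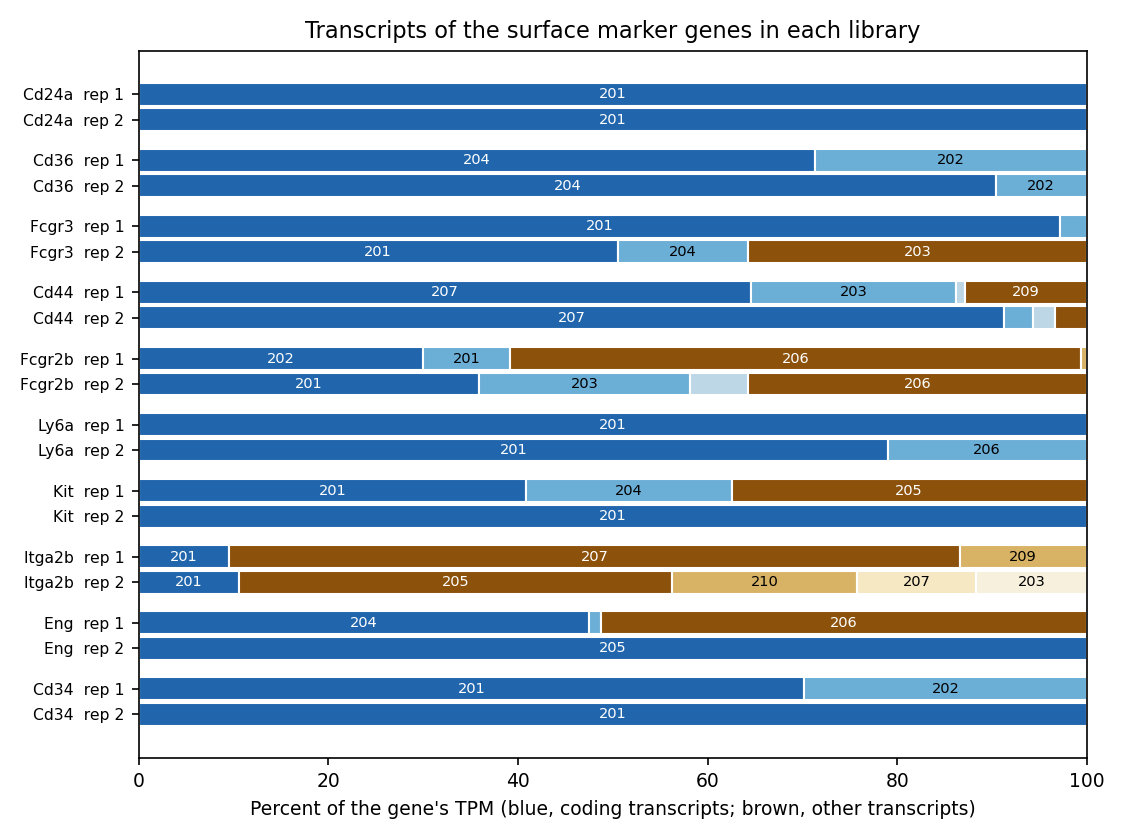
Percent of each gene's TPM assigned to its transcripts in each library, with coding transcripts in blue and non-coding ones in brown, darker for the larger share within a library, and the number of the transcript's name written in the larger blocks. Cd36 and Cd44 keep the same leading transcript, as Cd24a must with 1 annotated transcript. Eng and Itga2b are led by different transcripts in the 2 libraries.

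Other genes used to gate early progenitors stood near the lower marker genes. Of 13 such genes 0 reached 1 TPM in both libraries and 10 reached 1 rescaled TPM, with a median of 13.8 and 5.18 rescaled TPM. Cd48, an early progenitor antigen also on most white blood cells, was the highest, at 0.87 and 1.47 TPM, and Procr, a stem cell marker, was at 0 in both. The 16 erythroid surface genes had a median of 588 and 498 rescaled TPM, above 9 of the 10 marker genes. Of 12 genes of the lineage depletion cocktail 2 reached 1 TPM in both libraries, Ly6c2 and Ptprc, with a median of 14.2 and 14.8 rescaled TPM. Among 19 genes of ligands and partners 6 reached 1 TPM, and Ptpn6, a phosphatase that restrains Kit and Fc receptor signals, had 2.19 and 1.09 TPM.

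**Figure D4:**
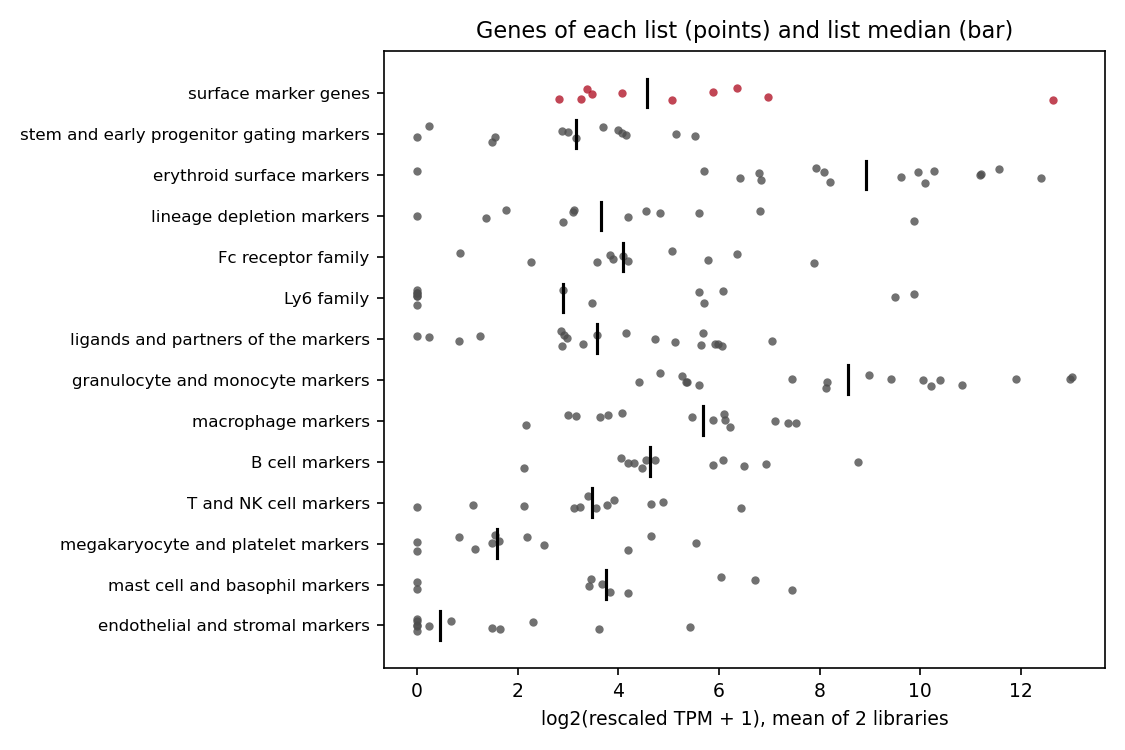
Mean over the 2 libraries of log2(rescaled TPM + 1) for every gene of each list (points, spread vertically only for sight) with the list's median (bar). The 10 surface marker genes (red) spread from Cd34 at the left to Cd24a at the right. Their median lies between those of the stem and early progenitor markers and of the erythroid surface markers. Several other lists have medians in that span, among them the B cell, the macrophage, and the granulocyte and monocyte lists.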

How the data were processed

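The tables of genes and transcripts were quantified for each of the 2 libraries from alignments to the transcriptome (mm10, GENCODE M4), per the deposited description. The aligner, quantifier and strand setting were not given in the sources used here. The authors' expected counts are estimates and can be fractional, per the file headers. The deposited TPM, maximum likelihood and posterior mean, is scaled over all entries and given to 2 decimals, which is coarse for genes under 0.1 TPM, and the deposited FPKM is per length and library size. The deposited isoform percent is the share of a gene's TPM held by a transcript. The posterior SD of the count, treated as a score, and the effective length were used as deposited.

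The 10 genes, the lists around them and the choices below were made with earlier results of these data known. Names, coordinates (1-based) and transcripts were looked up by Ensembl identifier in GENCODE M21, whose assembly GRCm38 is mm10; 42462 of 43346 genes and all 10 marker genes matched. Releases M4 and M21 can differ in transcripts. Entries that name no gene held 0 and 8 counts (0 and 7.23e-06% of counts). TPM was rescaled to nuclear protein-coding genes. Differences between libraries used log2(rescaled TPM + 1), which understates low genes, centred on the median over genes with a mean count of at least 20. Intervals are at 95%, exact Poisson for a level and exact binomial for a difference or ratio, on rounded counts, and cover counting error only, since reads without molecular identifiers are not independent molecules. A planned floor of 3 counts for a gene at 0 in a ratio was not used, since no gene of the ratios was at 0. Shared sequence was counted as 25-mers on either strand. Nucleotide identity of coding sequences, by global alignment, took the place of a planned protein identity. Named genes were the 10 marker genes, the 3 highest by mean TPM of each list, Tfrc and their partner genes. Of the 3 highest of each list, Ngp and Ly6g are not described above. Transcripts were mostly chosen from those at 10% or more of a gene's TPM in either library, and not all of these are described. Genes and the transcript named for being at 0, Ly6c1, and genes that share sequence or exons with a marker gene were named after their values were seen. Biopython 1.88, matplotlib 3.10.9, scipy 1.17.1, pandas 2.3.3, numpy 2.4.6, Python 3.11.15, R 4.3.3 and the scaling factors of edgeR 4.0.16 and DESeq2 1.42.0 were used.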

Additional observations from a re-analysis of the deposited data

How the results depend on the processing

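The 2 libraries of 1 group allow no test, and counts under 50 limit Ly6a, Itga2b, Eng and Cd34. The median of the marker genes' mean levels was 0.607 TPM, 24.3 when rescaled and 0.63 to 0.76 from a single library. Marker genes at 1 TPM or more numbered 4, against 10 when rescaled and 2 at a minimum of 2 TPM. Marker genes over 2-fold apart numbered 4, against 0 on the deposited TPM, where adding 1 outweighs values under 1, 3 with TMM or DESeq2 factors, and 2 with counts over a fixed transcript length. Eng, at 1.26, turned to -0.80 with TMM, -0.80 with DESeq2 factors and -0.60 with the fixed length. Leading transcripts at 50% or more in both libraries numbered 6, against 3 on posterior mean percent, and the cause was not tested. From a single library such transcripts numbered 8 to 9. That number could only stay or rise, since agreement between the libraries is no longer asked. Of 156 other listed genes 56 reached 1 TPM in both libraries, 126 when rescaled and 61 in either single library. The fixed length, the rescaling of the lists and leaving out a library from them were chosen after seeing the data. The number of neighbouring pairs apart (5, between 4 and 6) stayed within 1.5 times. Ratios over 2-fold numbered 8, and 10 from a single library. Single-library counts of ratios and of listed genes could only stay or rise, so they do not test stability. Kit over Ly6a was over 2-fold only in replicate 1 and Kit over Cd34 only in replicate 2. Eng over Itga2b was so in both, in opposite directions. In counts without length scaling the ratios over 2-fold also numbered 8, but not the same 8 as on the TPM scale. There Fcgr3 over Fcgr2b (0.88 in replicate 2) and Cd24a over Tfrc (0.71 and 0.84) fell under 2-fold. Kit over Ly6a (4.81 and 2.14) and Kit over Cd34 (1.39 and 3.11) passed it instead. Of the values of single genes and ratios, 122 moved by less than the spread or kept their call, 25 moved by more, 5 passed under 2-fold and 3 reversed. Part of this tally was fixed in advance and does not test stability. With 2 libraries, leaving 1 out always moves a mean by less than the SD, which covers 10 levels and 11 ratios for each library left out. On the rescaled TPM the 11 ratios could not change, and the 10 levels moved because the unit changed. The order without a library was not run, since overlap needs both. No paired analysis was possible because there is 1 group.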

Other observations

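Some genes of mast cells, basophils, T cells and NK cells were also measurable. Of 10 mast cell and basophil genes 3 reached 1 TPM in both libraries, the basophil protease genes Mcpt8 (4.18 and 4.6 TPM) and Prss34 (2.33 and 2.89 TPM) and the mast cell protease gene Cpa3 (1.77 and 1.48 TPM), while Cma1 and Tpsb2 were at 0 counts in both. Of 12 T and NK cell genes 1 did, Nkg7, a granule membrane gene of cytotoxic cells, at 2.11 and 2.21 TPM, with Trbc1 at 1.12 and 0.45 TPM and Trac at 0.63 and 0.57 TPM, and with Cd8a at 0 in both. Of 13 Ly6 family genes 6 were at 0 counts in both libraries, namely Ly6h, Ly6i, Ly6k, Lypd1, Slurp1 and Gpihbp1. Both of the next highest early progenitor antigens, Cd9 (0.98 and 0.76 TPM) and Cd38 (0.41 and 0.43 TPM), were near or above Kit (0.43 and 0.36 TPM).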
